A study of Sus scrofa with 6 samples.

Results

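Immediate early genes and inducible heat shock genes are among the first transcripts that cells make after a stimulus or an insult. Here 80 genes of these families, including relatives that act in unstressed cells, were compared between aortic valve leaflets of male and female pigs. They were taken from the array annotation by symbol: probe sets with a single gene symbol of the HSP, DNAJ, BAG, CCT, FOS, JUN, EGR, NR4A, GADD45 or IER families (the proteoglycan HSPG2 left out), together with ATF3, DUSP1, CYR61, ZFP36, BTG2, SGK1, PER1, HSF1 and HSF2. These 80 genes are 80 of the 6765 genes that the annotation names, and 127 of the 23999 probe sets other than controls carry their symbols. Each gene is represented by its probe set with the highest mean over the 6 arrays. They comprise 21 early response genes, 56 genes named as heat shock factors, chaperones and cochaperones, and 3 counted apart because their symbols name a partner protein (GADD45GIP1, HSPBP1 and IER3IP1). This grouping follows the symbols and not the function of each protein. DUSP5 and MAFF, and the canonical members FOSB, JUNB, JUND, EGR2, EGR3, NR4A1, HSPA1A and HSPA1B, were looked for and not matched to a probe set here.

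Total RNA came from leaflets of 3 castrated male and 3 female pigs of mixed breed, aged 5 months and weighing about 90 kg, with 1 pig on each Affymetrix Porcine Genome Array. The hearts came from a slaughterhouse, the leaflets were cut out no later than 5 hours after death, and their endothelial surface was scraped off with a scalpel before RNA extraction. The time between death and sampling of each pig was not used here, so its part in any value below was not tested. Because every male was castrated, sex and castration cannot be told apart. All expression values are log2 values made with RMA (robust multi-array average), on which a difference of 1 is 2-fold. They compare 1 gene between arrays, and levels of different genes are not compared.

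A resting cell holds little mRNA of most immediate early genes. When a growth factor, mechanical strain or stress activates MAP kinases, transcription factors that are already present switch these genes on without new protein synthesis. Their products include transcription factors of the AP-1, EGR and NR4A families and a group of inhibitors (DUSP1, ZFP36, BTG2) that shut the response down again. Heat shock genes form a second arm: misfolded protein releases the factor HSF1 from chaperones, and HSF1 then drives inducible HSP70 genes, DNAJB1, HSPH1 and BAG3, while relatives such as HSPA8, HSPD1 and the CCT subunits fold proteins in unstressed cells. Roles below are those known for the human and mouse proteins.

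The arrays had medians between 7.33 and 7.38. Correlations were 0.9874 to 0.9931 within a sex and 0.9721 to 0.9872 between the sexes. Every pair of 1 sex was thus more alike than any pair of different sexes, over the whole array, and the cause was not tested. Females 2 and 3 differed from the rest in control probe sets. In female 3 the signal near the 3′ end exceeded that near the 5′ end by 3.80 for actin, against 2.35 to 2.95 on the other 5 arrays, and GAPDH and EF1a were also highest there. Female 2 had 11.35 for a probe set of 18S rRNA, against 12.51 to 12.72 on the others, and 10.76 for a second one, against 9.72 to 10.16. Fibroblast and interstitial markers were abundant in all 6 samples (log2 of their summed level 16.48 to 16.66 in males and 16.66 to 16.86 in females), and 8 of 9 measured endothelial markers had the higher mean in males (log2 sum 13.45 to 14.61 in males and 12.76 to 13.52 in females). PECAM1, a defining endothelial gene, was at 13.69, 13.31 and 12.61 in the males and at 12.16, 12.28 and 11.83 in the females, so endothelial RNA was present after scraping. Of 4 measured neutrophil markers S100A8, S100A9 and S100A12 lay under the 25th percentile of the array and FCGR3A lay between 11.22 and 12.15, and the 6 measured macrophage markers had a median log2 fold change of 0.29. The part of cell makeup and RNA quality in the results was not tested, and in whole tissue fewer cells of a type and less RNA per cell cannot be told apart.

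None of the 80 genes passed the test between the sexes. In the limma fit over all probe sets 0 members reached both an adjusted p (Benjamini-Hochberg) under 0.05 and a 2-fold difference, while 73 probe sets, or 0.304% of the array, did (0.167% higher and 0.138% lower in males). A second fit used only the 10% of probe sets with the highest coefficient of variation over the 6 arrays (the CV filter). There 0 of the 8 members kept were called, against 7.59% of the probe sets kept. A variation taken over both sexes together favours probe sets that differ between them, so a call with this filter is not further support. Dropping the 2-fold minimum in the fit over all probe sets left 0 members called (0.358% of the array). At an unadjusted p under 0.05 there were 19 members, 13 with higher and 6 with lower means in males, and 16.9% of all probe sets met the same limit (8.08% higher and 8.83% lower).

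The values themselves leaned slightly to the male side. Means were higher in males for 58 of the 80 members and lower for 22, where 58.3% of all annotated genes had the higher mean in males. The median log2 fold change, male minus female, was 0.13 over the members, 0.05 over annotated genes and −0.01 over all probe sets. In 27 members (33.8%) the 3 male values lay all above or all below the 3 female values, 19 of them higher and 8 lower in males, where 22.4% of all probe sets (11.1% higher, 11.4% lower) and 24.7% of annotated genes did so. With 3 against 3 an exact permutation test of 1 gene cannot give a p below 0.1.

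**Figure D1:**
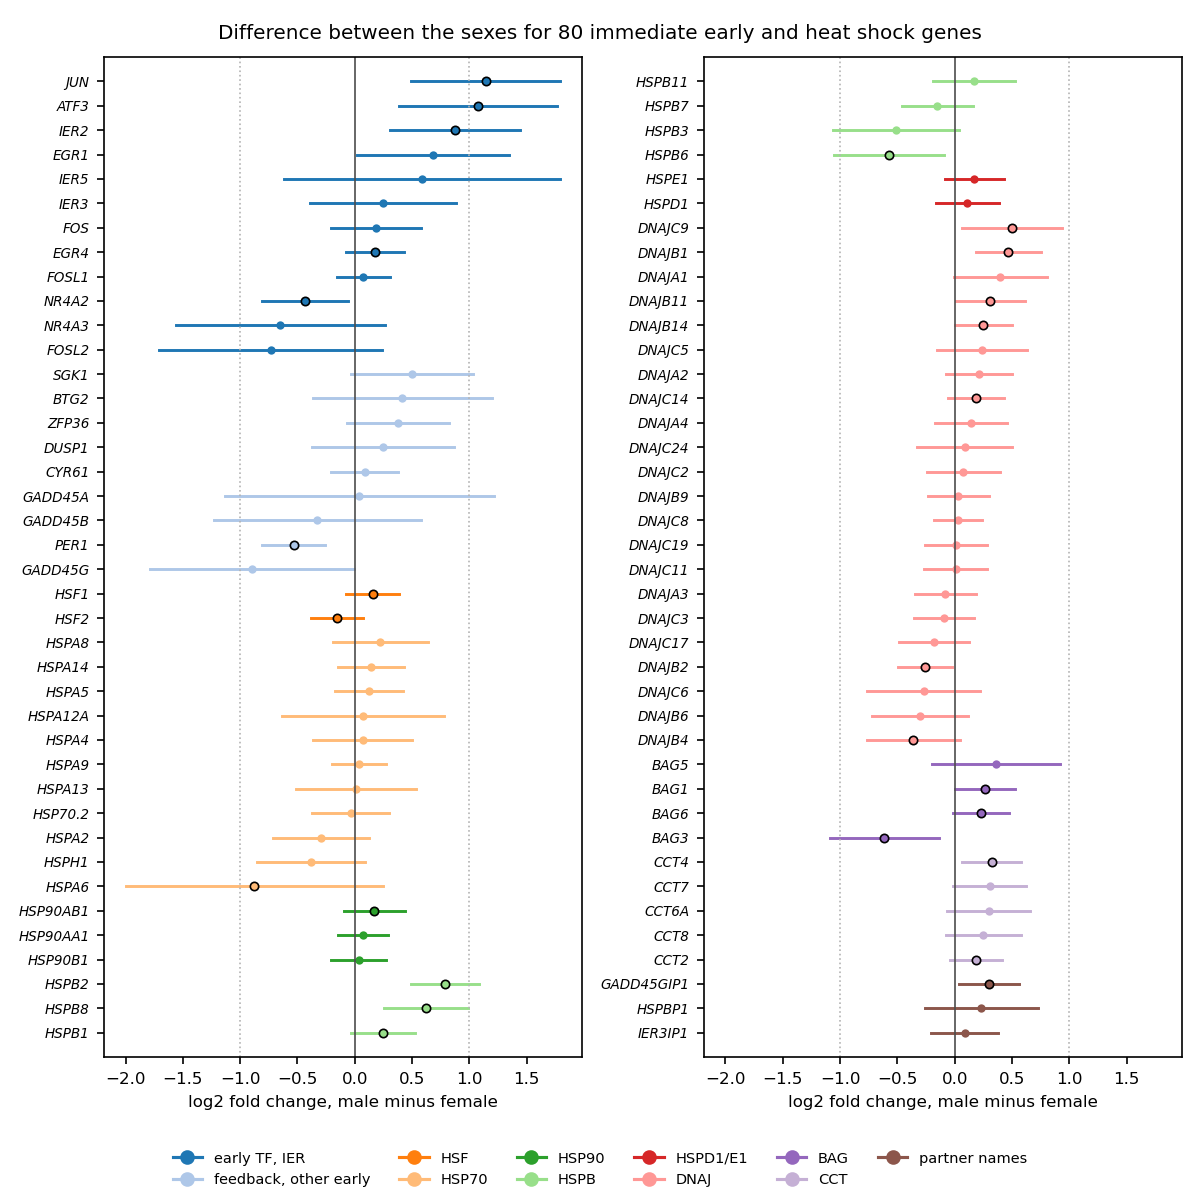
Log2 fold change, male minus female, of each of the 80 genes, with the 95% confidence interval of the limma fit; colours give the role, black rings mark the 27 genes whose sexes did not overlap, and dotted lines mark 2-fold in either direction. JUN (1.14) and ATF3 (1.07) are the points past 2-fold, and intervals are wider for the early response genes than for most chaperones.

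JUN and ATF3 were the members at least 2-fold apart, a size that 2.18% of all probe sets reached. JUN, the DNA-binding core of AP-1, was at 12.28, 11.83 and 12.37 in the males and at 11.59, 10.55 and 10.90 in the females. All 3 males lay above all 3 females, and the log2 fold change was 1.14 ± 0.28 (SE, 95% interval 0.49 to 1.79) with a limma adjusted p of 0.142. ATF3, a stress-induced repressor that pairs with JUN, was at 10.27, 10.49 and 10.47 in the males and at 10.04, 9.15 and 8.81 in the females. The males lay close together (SD 0.12) and the females far apart (SD 0.64), with female 1 nearest to the males. The fold change of ATF3 was 1.07 ± 0.29, with an adjusted p of 0.169 in the limma fit over all probe sets and 0.0906 with the CV filter. ATF3 depended on 1 animal: without female 1 its log2 fold change was 1.43 and its limma adjusted p 0.0409, which is a call. In both JUN and ATF3 the lowest values were those of females 2 and 3, the arrays that differed in control probe sets. The part of RNA quality in these differences was not tested.

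IER2, a nuclear early response protein, followed the same arrangement, with 12.29, 11.995 and 12.63 in the males against 11.90, 11.24 and 11.15 in the females. Its log2 fold change was 0.88 ± 0.24 (SE), and the limma adjusted p was 0.171. EGR1, the zinc finger factor that serum, strain and injury induce, was at 12.45, 12.73 and 12.86 in the males and at 12.65, 11.80 and 11.54 in the females. Here female 1 reached into the male range, and the log2 fold change of 0.68 ± 0.28 had a limma adjusted p of 0.285 and was 0.46 without female 3. A second EGR1 probe set gave a log2 fold change of 0.01 and the third −0.25, so the difference in EGR1 rests on 1 of its 3 probe sets.

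FOS, the usual partner of JUN, was at 13.81, 13.84 and 13.98 in the males and at 14.03, 13.41 and 13.63 in the females. The sexes overlapped and the log2 fold change was 0.19 ± 0.17 (SE). The other FOS family members were FOSL1 at 6.69, 6.54 and 6.61 in the males and 6.55, 6.45 and 6.61 in the females, and FOSL2 at 9.94, 10.45 and 9.46 in the males and 11.41, 10.80 and 9.85 in the females. FOSL2 was among the most variable members, spanning 1.95 over the 6 pigs, with female 1 highest by 0.61. Its log2 fold change of −0.73 ± 0.41 (limma adjusted p 0.415) became −0.37 without that animal and −1.15 without female 3.

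The NR4A nuclear receptors, which act without a known hormone ligand, had lower means in males. NR4A2 was at 12.15, 12.32 and 11.75 in the males and at 12.56, 12.41 and 12.54 in the females. These sexes did not overlap, and the log2 fold change was −0.43 ± 0.16 with a limma adjusted p of 0.244, and −0.27 without male 3. NR4A3 was at 11.69, 12.06 and 11.17 in the males and at 11.49, 12.98 and 12.40 in the females. Female 2 was highest and male 3 lowest, the SD was 0.45 in males and 0.75 in females, and the difference of −0.65 ± 0.39 (SE) had a limma adjusted p of 0.442 and was −0.31 without female 2 and −1.05 without female 1.

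IER3, IER5 and EGR4 complete the transcription factors and IER genes. IER3, a survival factor under NF-κB control, had 10.35, 10.77 and 10.59 in the males and 10.16, 10.94 and 9.86 in the females. IER5, which binds HSF1, had 11.29, 11.12 and 10.44 in the males and 9.82, 11.60 and 9.67 in the females. In both, female 2 was the highest and female 3 the lowest of all 6 pigs, and IER5 had an SD within sex of 0.82, above that of 99% of annotated genes. EGR4 was between 4.19 and 4.59 on every array, under the 25th percentile of the array (5.53), with a log2 fold change of 0.18. Of the 12 genes in this class 9 had higher means in males and 5 (41.7%, against 24.7% of annotated genes) did not overlap, 4 of them higher in males (ATF3, IER2, JUN and the dim EGR4). Of the 9 feedback and other early response genes 1 (11.1%) did not overlap. Over all 21 early response genes the count was 6 (28.6%), close to the share of annotated genes.

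**Figure D2:**
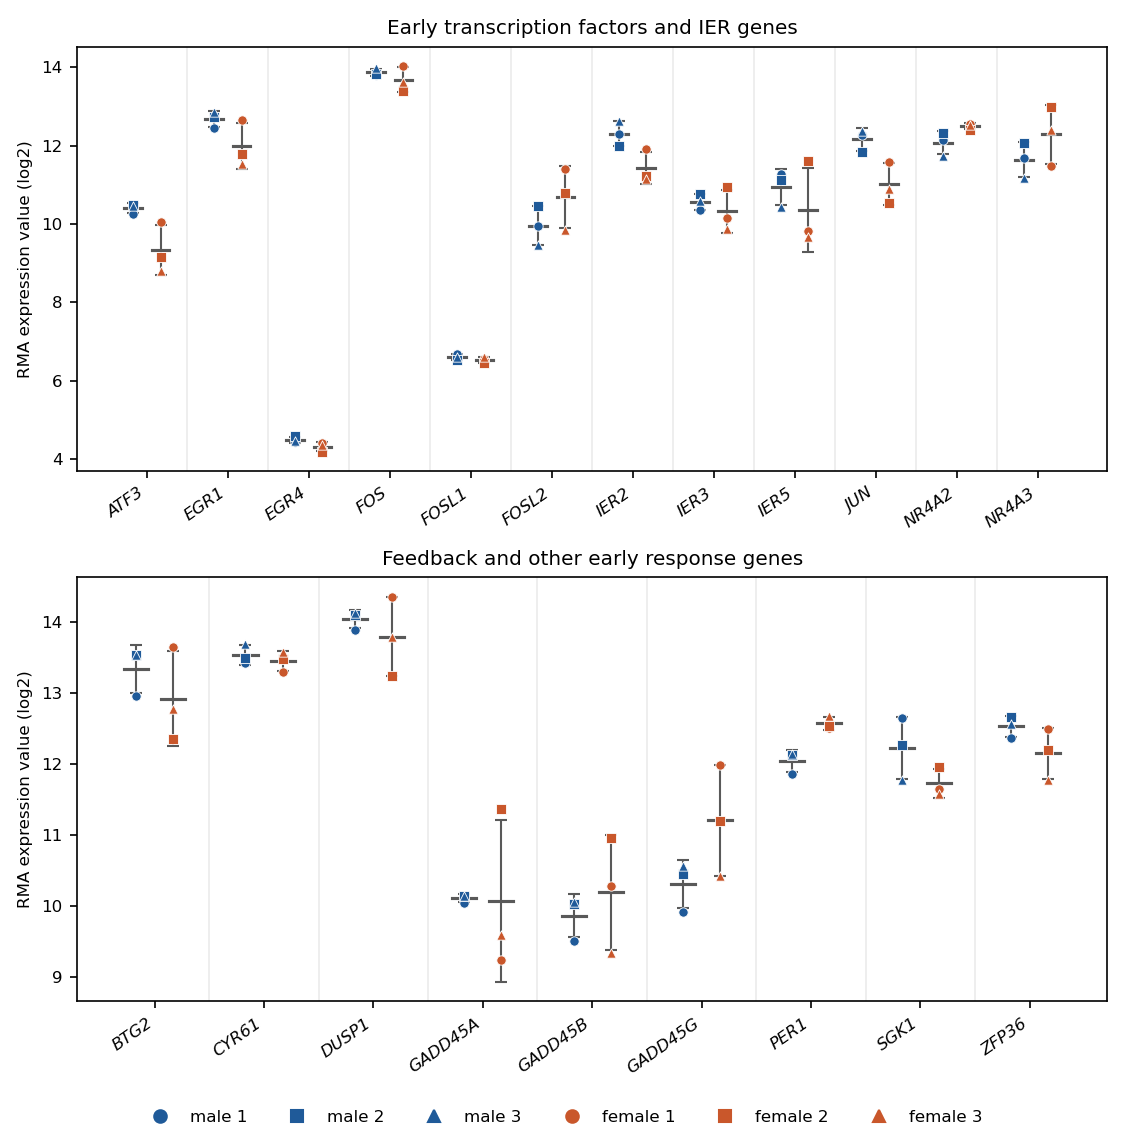
RMA log2 values of the 12 early transcription factors and IER genes (top) and the 9 feedback and other early response genes (bottom), with males left of females for each gene; points are single pigs and bars the mean ± SD of 3 pigs. In ATF3 and GADD45A the 3 males sit close together while the females are far apart, and female 2 is the top point of GADD45A, GADD45B, IER5 and NR4A3.

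Among the feedback genes, the inhibitors had smaller SDs in males than in females (for DUSP1, 0.13 in males and 0.56 in females). DUSP1, the phosphatase that inactivates MAP kinases, was at 13.89, 14.10 and 14.12 in the males and at 14.35, 13.23 and 13.78 in the females. BTG2, an antiproliferative gene, was at 12.95, 13.53 and 13.53 in the males and at 13.64, 12.35 and 12.77 in the females. In both genes female 1 was highest and female 2 lowest, on either side of the males. That order also held for FOS. The fold changes were 0.25 ± 0.26 for DUSP1 and 0.42 ± 0.33 for BTG2 (SE), and without female 2 they were −0.03 and 0.13, against 0.53 and 0.78 without female 1. ZFP36, which targets AU-rich mRNAs for decay, was at 12.37, 12.66 and 12.56 in the males and at 12.49, 12.20 and 11.77 in the females, with a log2 fold change of 0.38 ± 0.19 that was 0.19 without female 3.

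PER1, a core clock gene that glucocorticoids and cAMP also induce, was the feedback gene with the smallest p. It was at 11.86, 12.12 and 12.13 in the males and at 12.51, 12.53 and 12.67 in the females. Every male was below every female (SD 0.15 in males and 0.09 in females), with a log2 fold change of −0.53 ± 0.12 (SE) and a limma adjusted p of 0.125. A second PER1 probe set gave −0.06. SGK1, a kinase that glucocorticoids and osmotic stress induce, leaned the other way, with 12.64, 12.26 and 11.77 in the males and 11.65, 11.96 and 11.58 in the females (log2 fold change 0.50 ± 0.23, limma adjusted p 0.326, and 0.29 without male 1). CYR61, a matrix protein under YAP and strain control, was even on all arrays, with 13.41, 13.50 and 13.69 in the males and 13.29, 13.47 and 13.57 in the females.

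The 3 GADD45 genes encode small stress proteins that bind the kinase upstream of p38 and JNK. GADD45A was at 10.05, 10.15 and 10.15 in the males and at 9.25, 11.37 and 9.60 in the females. The male SD was 0.06 and the female SD 1.14, while the means were 10.11 in males and 10.07 in females. GADD45B was at 9.52, 10.03 and 10.06 in the males and at 10.28, 10.96 and 9.35 in the females, again with female 2 on top. GADD45G was at 9.92, 10.45 and 10.56 in the males and at 11.99, 11.20 and 10.43 in the females. Female 1 was highest here by 0.80, and the log2 fold change of −0.89 ± 0.38 (limma adjusted p 0.294) is the most negative of the 80 members, at −0.50 without female 1.

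Among the heat shock genes, the HSF factors were nearly constant. HSF1 was at 9.88, 9.78 and 9.69 in the males and at 9.62, 9.67 and 9.59 in the females. HSF2, its relative in development and stress, was at 9.28, 9.29 and 9.35 in the males and at 9.45, 9.54 and 9.40 in the females. Neither overlapped between the sexes, but the fold changes were only 0.16 and −0.16 (SE 0.10 each), and limma gave adjusted p values of 0.469 and 0.455.

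HSPA6 had the widest range of all members. In humans it is the strictly inducible HSP70 gene, silent without stress. It was at 8.49, 8.43 and 8.09 in the males and at 8.64, 10.44 and 8.56 in the females. The female 2 value stood 1.80 above the next pig, and the range of 2.35 is 5.09-fold. The log2 fold change was −0.87 ± 0.48 (SE, limma adjusted p 0.400), and without female 2 it was −0.26. BAG3, which couples HSP70 to small heat shock proteins and is an HSF1 target, was at 11.34, 11.37 and 11.18 in the males and at 11.58, 12.37 and 11.80 in the females. Female 2 was again highest, by 0.57, yet all 3 males lay below the females, with a log2 fold change of −0.61 ± 0.20 (limma adjusted p 0.213) and of −0.39 without female 2. The second BAG3 probe set gave −0.28, with its highest value also in female 2.

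HSPH1, the HSP110 exchange factor of HSP70, had 11.30, 11.50 and 10.78 in the males and 11.51, 11.79 and 11.41 in the females (log2 fold change −0.38 ± 0.20, and −0.18 without male 3). DNAJB1, the J protein that partners inducible HSP70 and is itself an HSF1 target, went the other way. It was at 10.60, 10.37 and 10.31 in the males and at 9.85, 10.07 and 9.96 in the females, without overlap, and its log2 fold change was 0.47 ± 0.12 with a limma adjusted p of 0.157. HSP70.2, the inducible HSP70 gene of the pig, did not share the HSPA6 pattern. Its values were 11.80, 11.61 and 11.79 in the males and 11.998, 11.52 and 11.80 in the females, lowest in the animal with the highest HSPA6. The known HSF1 targets therefore had fold changes of both signs, and female 2 was highest for HSPA6, HSPH1 and BAG3 but not for DNAJB1 or HSP70.2.

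**Figure D3:**
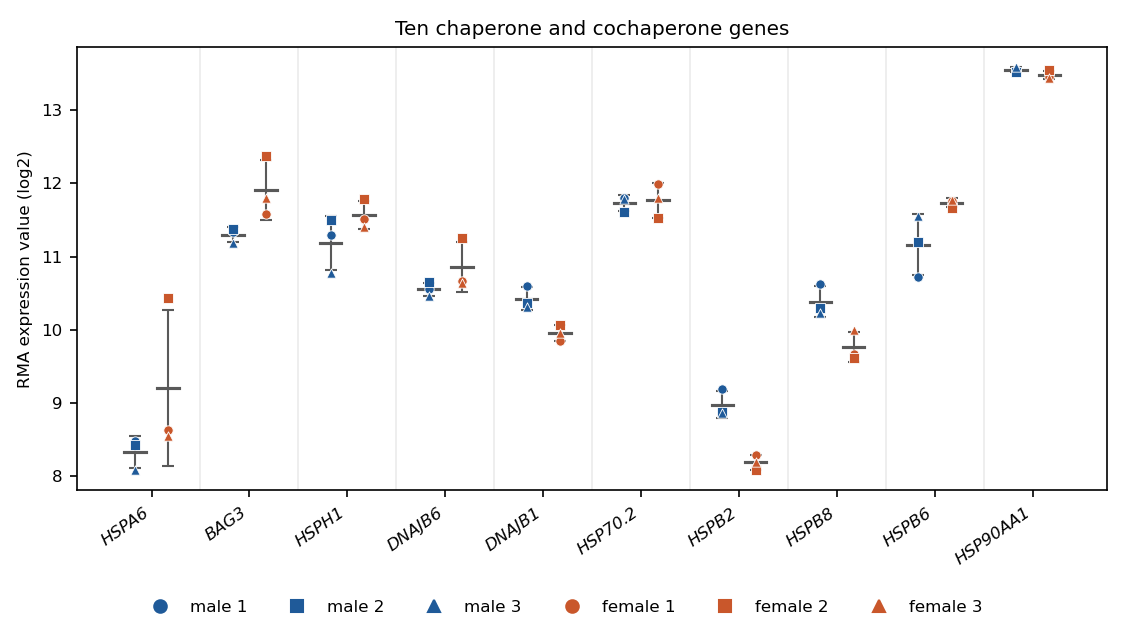
RMA log2 values of 10 chaperone and cochaperone genes, males left of females for each gene; points are single pigs and bars the mean ± SD of 3 pigs. Female 2 stands alone in HSPA6 at 10.44, males lie above females in DNAJB1, HSPB2 and HSPB8 and below them in BAG3 and HSPB6. HSP90AA1 hardly varies on its chosen probe set.

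The remaining HSP70 relatives differed little on their chosen probe sets. HSPA8, the constitutive cytosolic HSP70, was at 13.12, 12.97 and 12.54 in the males and at 12.50, 12.87 and 12.59 in the females, a log2 fold change of 0.22 ± 0.18. Its 3 other probe sets gave −0.75, −0.97 and −0.83, each with the highest value in female 3 and the lowest in male 1. Those at −0.97 and −0.83 were lower in every male, without overlap. The mean of all 4 probe sets gave −0.58, so the direction of HSPA8 is unsettled. Female 3 was also the array with the largest 3′ minus 5′ differences, and the part of RNA quality in the disagreement was not tested. HSPA5, the HSP70 of the endoplasmic reticulum, had a fold change of 0.12 and its mitochondrial counterpart HSPA9 0.04. HSPA2 (−0.29) and HSPA13 (0.01) were both highest in female 2, at 11.12 and 10.77. On the chosen probe sets 7 of 11 HSP70 family genes had higher means in males and 1, HSPA6, did not overlap (9.09%, against 24.7% of annotated genes).

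HSP90 genes were among the steadiest on their chosen probe sets. HSP90AA1, the stress-inducible cytosolic form, was at 13.55, 13.52 and 13.59 in the males and at 13.46, 13.55 and 13.44 in the females, a range of 0.15. Another HSP90AA1 probe set was less steady, from 10.57 in female 3 to 11.74 in male 1 (log2 fold change 0.40). The remaining ones gave −0.14, −0.03 and 0.03. The constitutive HSP90AB1 and the reticulum form HSP90B1 had fold changes of 0.17 and 0.03. HSPD1 and HSPE1, which form the mitochondrial chaperonin and lie next to each other in the pig genome, had 0.11 and 0.17. None of these 5 genes had a limma adjusted p below 0.476 on its chosen probe set.

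Small heat shock proteins (HSPB), which hold unfolded protein and are abundant in muscle, gave the smallest p among the members. HSPB2 was at 9.19, 8.88 and 8.86 in the males and at 8.29, 8.08 and 8.20 in the females. All 3 males lay above all 3 females (SD 0.19 in males and 0.11 in females), and the log2 fold change was 0.79 ± 0.13 (95% interval 0.49 to 1.09, or 1.73-fold). It did not reach 2-fold, and its limma adjusted p of 0.067 lay between 0.0532 and 0.215 when 1 array at a time was left out. With arrays weighted by their quality the adjusted p was 0.0309 at a log2 fold change of 0.71, still under 2-fold. The annotated spans of HSPB2 and the lens and muscle chaperone CRYAB overlap in the pig genome. CRYAB, outside the 80 genes, was at 11.70, 11.63 and 11.41 in the males and at 11.17, 11.19 and 11.09 in the females (log2 fold change 0.43, limma adjusted p 0.159).

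HSPB8, the small heat shock partner of BAG3, was at 10.63, 10.29 and 10.24 in the males and at 9.68, 9.62 and 10.01 in the females, a log2 fold change of 0.62 ± 0.16 with a limma adjusted p of 0.151. It was thus higher in every male, where BAG3 was lower in every male. HSPB1 was at 12.68, 12.86 and 12.69 in the males and at 12.34, 12.65 and 12.51 in the females (0.25 ± 0.12, SE). HSPB6, a regulator of smooth muscle relaxation, lay lower in every male, with 10.73, 11.20 and 11.56 in the males and 11.77, 11.66 and 11.77 in the females. Its log2 fold change was −0.57 ± 0.20 (limma adjusted p 0.235), the second probe set gave −0.54, and without male 1, the lowest array, it was −0.36. HSPB3 lay under the 25th percentile of the array and had a log2 fold change of −0.51 with overlap. HSPB7 and HSPB11 had fold changes of −0.15 and 0.17 with overlap. Of the 7 HSPB genes 4 had higher and 3 lower means in males. The sexes did not overlap in 4 (57.1%, against 24.7% of annotated genes), 3 higher and 1 lower in males. Of the cardiac and smooth muscle markers, 4 of 7 measured lay under the same percentile (ACTC1, MYH7, MYL2 and TNNT2), and the median fold change of that list was 0.01.

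The 22 J proteins (DNAJ) stimulate the ATPase of HSP70 and steer it to substrates. Means were higher in males for 15 and lower for 7, the median log2 fold change was 0.05, and 7 (31.8%) did not overlap, against 24.7% of annotated genes. The highest fold change was that of DNAJC9, a histone chaperone, with 7.84, 7.38 and 7.13 in the males and 7.01, 6.83 and 7.03 in the females (0.50 ± 0.19, limma adjusted p 0.251, and 0.30 without male 1). DNAJB11, a cofactor of HSPA5, had 9.74, 9.96 and 9.65 in the males and 9.38, 9.63 and 9.39 in the females. DNAJB2, a neuronal J protein that hands clients to the proteasome, was lower in every male, at 7.85, 7.73 and 7.90 against 8.14, 8.12 and 8.01 in the females. DNAJB6, which suppresses aggregation, was at 10.56, 10.65 and 10.47 in the males and at 10.67, 11.26 and 10.65 in the females, with female 2 highest by 0.58. DNAJC8, a splicing-associated J protein, was the steadiest member of all, within 0.06 over the 6 pigs. DNAJA1 gave 0.40 with its chosen probe set and −0.39 with the other.

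BAG1, BAG5 and BAG6, nucleotide exchange or sorting factors of HSP70, had fold changes of 0.26, 0.36 and 0.23, of opposite sign to BAG3. Of the 4 BAG genes 3 (75%, against 24.7% of annotated genes) did not overlap between the sexes, 2 higher and 1 lower in males. The 5 measured CCT subunits, which form the ring that folds actin and tubulin, all had the higher mean in males: CCT2 0.19, CCT4 0.32, CCT6A 0.30, CCT7 0.31 and CCT8 0.25. CCT4 was at 12.04, 12.004 and 11.91 in the males and at 11.80, 11.66 and 11.52 in the females. CCT4 and CCT2 did not overlap between the sexes (40% of the 5 subunits, against 24.7% of annotated genes). In all 5 subunits male 1 was the highest and female 3 the lowest array, and the median was 0.21 without male 1 and 0.21 without female 3. TCP1, a further subunit of the ring outside the 80 genes, had a log2 fold change of 0.30 (limma adjusted p 0.229). A second CCT6A probe set gave −0.07.

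**Figure D4:**
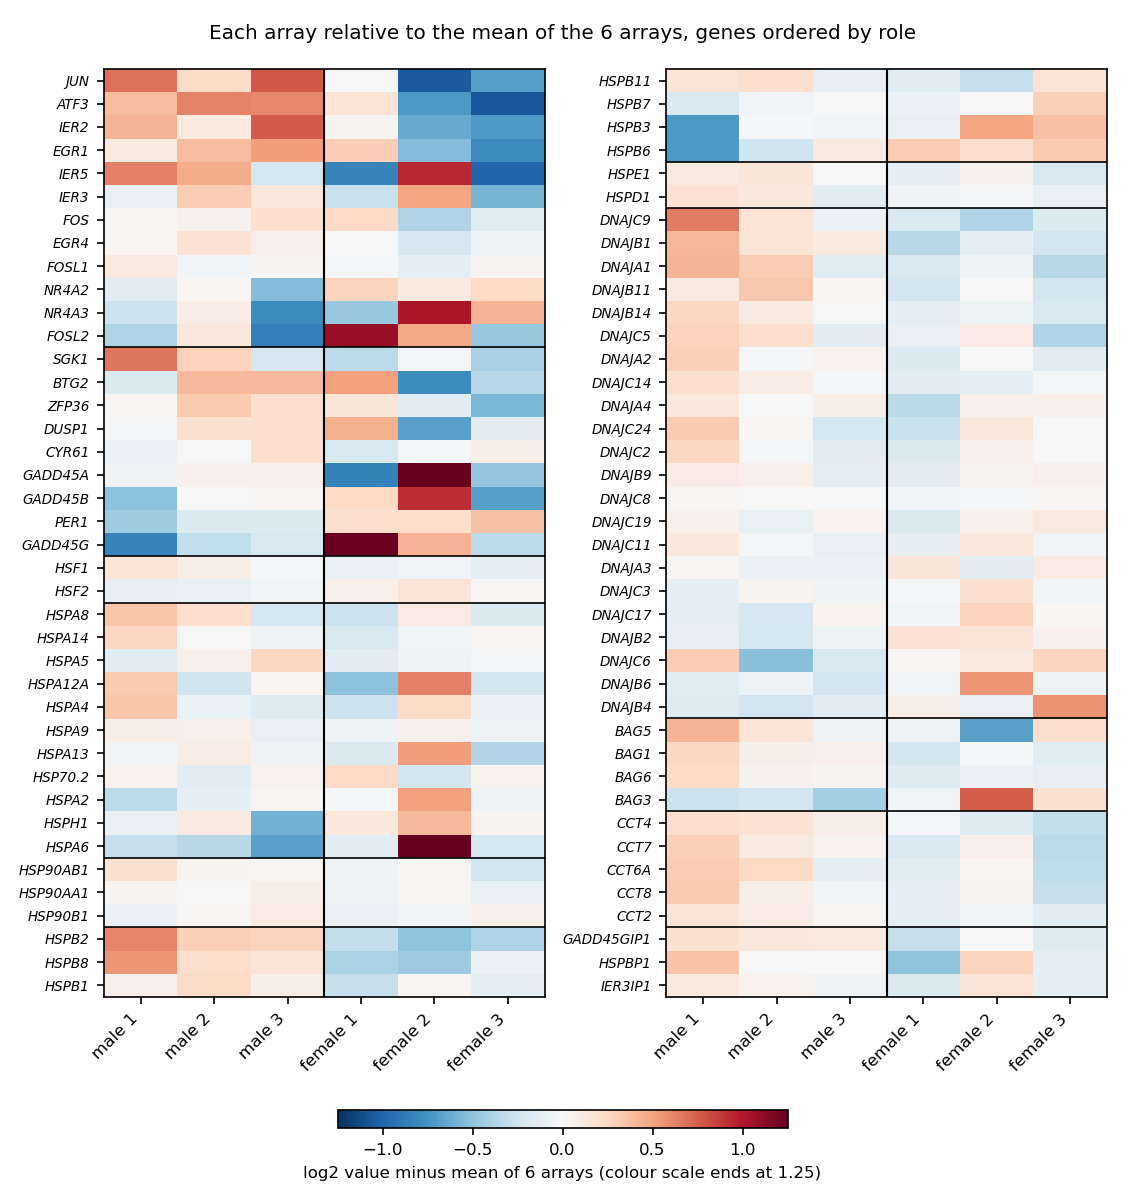
Value of each of the 80 genes on each array minus its mean over the 6 arrays (log2), males left of females, genes ordered by role and, within a role, by fold change. Female 2 is darkest red in HSPA6 and GADD45A, where the colour scale is exceeded, male 1 is mostly red through the DNAJ and CCT genes, and the top 4 rows (JUN, ATF3, IER2 and EGR1) are red in males and blue in females 2 and 3.

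The arrangement of the pigs differed between the 2 arms. Male 1 was the highest array for 30 of the 56 chaperone genes (53.6%), where it was highest for 30.6% of all annotated genes, and for only 2 of the 21 early response genes. Male 1 also had the highest level of the endothelial markers, and the part of that in the chaperone values was not tested. Leaving male 1 out moved the number of chaperone genes with the higher mean in males to 33 of 56, from 40 with all arrays, and leaving out female 1 moved it to 34. Among the 21 early response genes the lowest array was most often female 3 (8 genes, 38.1%) or female 2 (6 genes, 28.6%). Over annotated genes these 2 arrays were lowest for 22.3% and 21.3%. The highest array was most often female 1 (6 genes, 28.6%) or female 2 (5 genes, 23.8%), against 13.3% and 17.4% of annotated genes.

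Female 2 stood alone above the other 5 pigs, by more than 0.5, for 7 members (8.75%): HSPA6, BAG3, DNAJB6, HSPA2, GADD45A, GADD45B and NR4A3. The same held for 0.843% of annotated genes, and no other animal did so for more than 2 members (female 1, for FOSL2 and GADD45G). The gap of 0.5 was chosen after the values were seen, and HSPA13 fell short of it at 0.43. In the same animal FOS, DUSP1, BTG2 and JUN were at their lowest, so the early response genes of this animal lay on both sides of those of the other pigs. Among 21 further early response genes of a fixed list, female 2 stood alone on top for CCL2, IL6, MYC and NFKBIA, and was the highest array for 10. IL6, the cytokine with the widest swing among them, was between 8.72 and 10.24 in the males and at 7.67, 11.50 and 7.57 in the females. Female 2 was the array on which the 18S rRNA probe sets given above differed most from the others, 1 low and 1 high, and the part of RNA quality in its pattern was not tested.

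The early response genes had a wider spread between pigs of 1 sex than the chaperone genes. The median SD within sex was 0.42 for the early response genes, 0.15 for the chaperone genes and 0.16 for annotated genes. Of the 15 members above the 90th percentile of annotated genes (0.37), 13 were early response genes and the rest were HSPA6 and HSPA12A. The median range over the 6 pigs was 1.30 for the early response genes, against 0.50 for the chaperone genes and 0.47 for annotated genes. A range of at least 1 was found for 14 of 21 early response and 10 of 56 chaperone genes, where 13.7% of annotated genes had one.

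**Figure D5:**
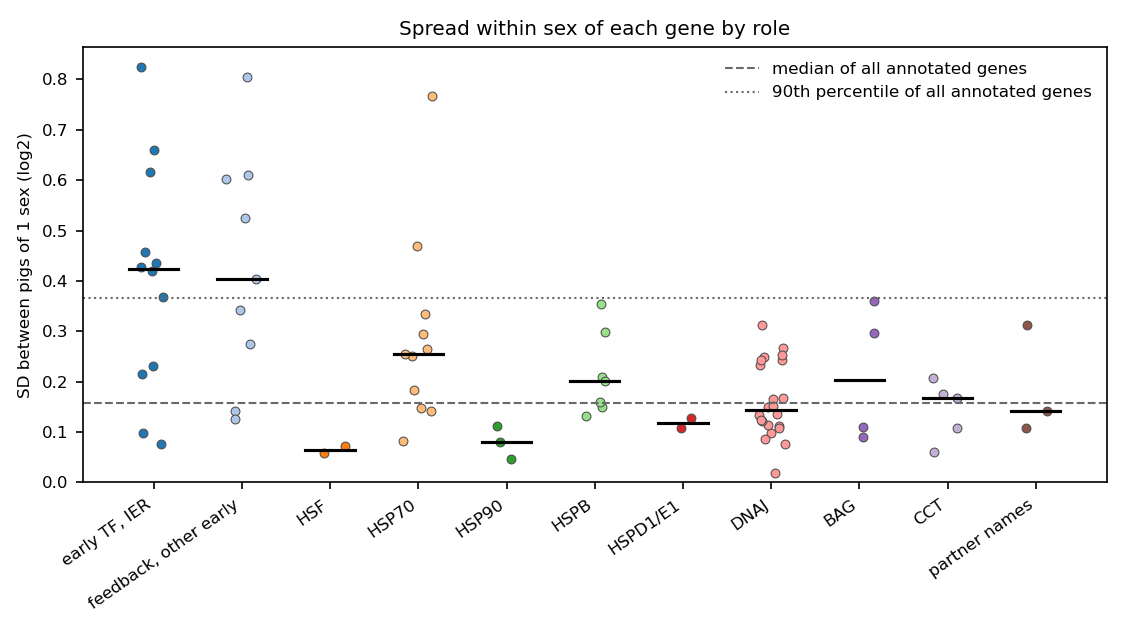
SD between pigs of 1 sex (log2, pooled over both sexes) for each of the 80 genes by role; black bars are role medians, the dashed line is the median of all annotated genes (0.16) and the dotted line their 90th percentile (0.37). Most early response genes lie above the dotted line and most chaperones below it, with HSPA6 the highest chaperone at 0.77.

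Genes around the response, from fixed lists, were called 0 times over all probe sets. Of 16 upstream kinases and factors 8 were measured, 7 with higher means in males (median log2 fold change 0.27). Of the 21 further early response genes 14 had higher means in males (median 0.12). The CV filter kept 6 of them and 2 were called, where 7.59% of all probe sets kept were: the cytokine LIF, at 7.76, 8.07 and 7.81 in the males and at 6.29, 7.05 and 5.08 in the females (log2 fold change 1.74, limma adjusted p 0.0465 with the filter and 0.156 over all probe sets), and the small GTPase RRAD, at 8.80, 9.34 and 8.36 in the males and at 7.77, 7.43 and 7.35 in the females (1.31, 0.0483 and 0.0957). The filter favours genes that differ between the sexes, so these 2 calls are not further support. GEM, a relative of RRAD, lay the other way, at 11.79, 12.27 and 12.03 in the males and at 12.77, 12.90 and 13.00 in the females (−0.86, limma adjusted p 0.0718). Of 16 measured co-chaperones and heat shock factor targets 14 had higher means in males (median 0.18), of 10 reticulum stress genes 9 (median 0.09), and of 5 glucocorticoid targets 1 (median −0.21).

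Several probe sets were present for 31 of the 80 genes, and in 14 of these their signs differed. Fold changes near 0 in such genes therefore have no settled direction, and HSPA8, EGR1 and DNAJA1 are the cases among the genes described above where probe sets differed most.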

How the data were processed

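Leaflet RNA of 3 castrated male and 3 female pigs (400 ng labelled for each sample) was measured on 6 arrays. The deposited log2 values come from the authors' RMA (background correction, normalization and summary per probe set; R 2.12.0) and were not normalized again. Raw intensities were not used. The number of arrays limits the precision. The p values set the difference between the sexes against the spread between these pigs within a sex, which limma moderates over all probe sets fitted.

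Males were set against females in R 4.3.3 with the lmFit and eBayes functions of limma 3.58.1 (with statmod 1.5.0), without covariates, over the 23999 probe sets other than 124 controls. A second fit, with its own p values and adjustment, used only the 2412 probe sets, of 24123, whose log2 values had the highest CV, the SD over the mean. A call needed a Benjamini-Hochberg adjusted p under 0.05 and a log2 fold change of at least 1 in either direction. The methods describe the filter as dropping values that were not alike between replicates and state no share. Keeping the 10% with the highest CV departs from that wording and was chosen from an earlier reading of the study's adjusted p values. The analysis was tested on simulated data. Plots were made in Python 3.11.15 (matplotlib 3.10.9).

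The members, gene lists and tests were chosen with earlier results of these data known. Named genes are the 20 members with the smallest p, the 10 with the widest range, the 5 with the smallest SD within sex and a fixed set of canonical early response and heat shock genes; other members were named after their values were seen. Symbols come from the platform annotation, which gives 1 gene symbol for 10099 probe sets and several for 198; 79 of the 80 symbols are current in RefSeq, whose assembly is Sscrofa11.1. Medians, counts without overlap and spreads are descriptions with no test. The replicate numbers were not used as pairs in the main fit, and whether they pair the samples cannot be told. Alternatives were other weights, an intensity trend, a filter on low values, centring, the mean of all probe sets of a gene, a block on replicate number and leaving out each array. No sequences were used here.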

Additional observations from a re-analysis of the deposited data

How the results depend on the processing

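No member was called over all probe sets under the replicate block, centring, intensity trend, array weights, the mean of all probe sets, the filter on low values or no minimum fold. Leaving out 1 array gave 0 to 1 calls; the call was ATF3 without female 1 (log2 fold change 1.43, limma adjusted p 0.0409). With the CV filter the count was 0 under these settings and when each array was left out, except for array weights, which called 1 member, ATF3 (1.05, limma adjusted p 0.0209); the weights were estimated without full convergence. The labels do not say whether the replicate numbers pair the samples, and the values do not settle it. Same-numbered pigs deviated together with correlations of −0.10, 0.01 and 0.27, and 2 of 6 arrays (male 3 and female 3) correlated best with their own number. The replicate block gave 0 member calls in both comparisons (204 against 73 over the array). With array weights HSPB2 had an adjusted p of 0.0309 without reaching 2-fold. The array gave 81 calls with an intensity trend and 280 with array weights.

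The members without overlap numbered 24 to 27 under the other settings and 31 to 42 when 1 array was left out. The count was highest without female 2 (42 or 52.5%, where 39.8% of all probe sets had none). It was lowest without male 1 (31 or 38.8%, where 27.3% of all probe sets had none). Over all probe sets the share was 22.4% with 6 arrays, so leaving out an array raised it for the whole array too. The median log2 fold change was 0.08 to 0.18 and the median SD within sex 0.16 to 0.19 when 1 array was left out. Of 564 values of the 47 named members, 557 kept their direction and side of the threshold, 6 turned sign and 1 became a call. Those that turned were HSPA8 with the mean of its probe sets (−0.58), HSP90B1 (−0.0097 to 0.077 when 1 array was left out), GADD45A (−0.37 to 0.69), DUSP1 (−0.032 to 0.53) and GADD45B (−0.75 to 0.052). The cause was not tested. EGR4 and HSPB3 lay under the 25th percentile of the array.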
